A study of Mus musculus with 8 samples.

Results

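The genes described here handle glutamate and glutamine in mouse quadriceps. They were taken by symbol as a set of 9, chosen with earlier results of these data known. All 9 were found among the 54532 genes of the deposited tables and passed the filter on low counts. They comprise 3 mitochondrial or cytosolic enzymes of glutamate (Glud1, Got1, Got2), glutamine synthetase (Glul) and 5 genes for plasma membrane carriers or their subunits (Slc1a1, Slc1a5, Slc38a2, Slc7a5, Slc3a2). RNA came from 8 libraries of chow-fed mice aged 3 months. In both groups each mouse was Gpcpd1 Flox/Flox, which by itself leaves the gene in place. The control group (PMK WT, 4 libraries) was Mck Cre negative, and the knockout group (MckCre-Gpcpd1, PMK KO, 4 libraries) was MckCre positive. Mck is the muscle creatine kinase promoter, which is active in muscle fibres, so the other cells of the tissue are not targeted and presence of Cre goes together with loss of Gpcpd1. Neither sex nor litter is stated, and no label says that each library came from its own mouse, so p-values measure the spread between libraries.

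Muscle is a major site of glutamine production in the body. Glutamine synthetase joins ammonia to glutamate. Aminotransferases and glutamate dehydrogenase move nitrogen and carbon between glutamate, aspartate, alanine and the tricarboxylic acid cycle. Sodium-coupled carriers bring glutamine and glutamate into the cell, and the heterodimer of Slc7a5 and Slc3a2 exchanges intracellular glutamine for leucine and other large neutral amino acids.

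Library totals ran from 4404116 to 5405999 reads and did not separate the genotypes (exact two-sided permutation p = 0.343). Gpcpd1 stood at 23.5% of the control level, with 688 to 771 reads in controls and 145 to 193 in knockouts. The 10 listed myofibre markers, which check the tissue, summed to between 125848 and 144156 CPM. CPM is the read count normalised to library size after TMM scaling (trimmed mean of M-values), and because 3′ tags give 1 read per transcript a longer transcript is not expected to give more. Every ± is the SD over the 4 libraries of a group (n = 4).

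Of the 9 genes, 3 passed the threshold (an adjusted p under 0.05 by edgeR's quasi-likelihood test, corrected over all 10691 tested genes). The glutamate transporter gene Slc1a1 rose, and Glul and the glutamine transporter gene Slc38a2 fell. Among all tested genes 15.7% passed, 8.87% as higher and 6.8% as lower in the knockout. The median log2 fold change was -0.16 over the 9 genes and 0.01 over all tested genes. The libraries of the groups did not overlap for 4 of the 9, against 19.2% of all tested genes. Because the set was chosen with earlier results of these data known, these shares describe it and do not test it.

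The promoters of the 3 changed genes are shown because their transcripts moved in different directions. Each line gives the 250 bases before the RefSeq transcript start on GRCm38.p6, 5′ to 3′ on the gene's strand, with motif matches in capitals. The windows are chr1:153899679-153899928 (plus strand) for Glul, chr19:28834885-28835134 (plus strand) for Slc1a1 and chr15:96699729-96699978 (minus strand) for Slc38a2.
Glul: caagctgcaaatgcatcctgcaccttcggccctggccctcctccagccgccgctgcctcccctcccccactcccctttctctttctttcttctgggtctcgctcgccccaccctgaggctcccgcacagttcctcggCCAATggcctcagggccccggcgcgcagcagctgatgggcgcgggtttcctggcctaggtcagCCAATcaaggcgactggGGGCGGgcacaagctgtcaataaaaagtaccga
Slc1a1: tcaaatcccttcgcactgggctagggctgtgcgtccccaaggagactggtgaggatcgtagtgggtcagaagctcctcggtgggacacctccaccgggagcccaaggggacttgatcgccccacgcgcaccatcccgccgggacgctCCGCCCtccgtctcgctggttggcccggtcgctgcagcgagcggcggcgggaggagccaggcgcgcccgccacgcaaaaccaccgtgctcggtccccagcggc
Slc38a2: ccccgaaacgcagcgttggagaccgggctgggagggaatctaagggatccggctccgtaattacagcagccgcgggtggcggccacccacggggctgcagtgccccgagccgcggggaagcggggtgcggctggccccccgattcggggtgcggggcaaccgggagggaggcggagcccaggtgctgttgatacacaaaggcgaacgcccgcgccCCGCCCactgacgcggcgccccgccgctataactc
The motifs searched, on both strands and with overlaps allowed, were CCAAT (the CCAAT box), GGGCGG (the GC box), TATAAA (the TATA box), CACGTG (the E-box bound by clock, Myc and TFE factors), TGATGNAA (the core of the amino acid response element) and the inverted repeat of the glucocorticoid receptor element. Glul held 2 CCAAT boxes, at -113 to -109 and -50 to -46 from the start, and 1 GC box at -33 to -28. Slc1a1 and Slc38a2 each held 1 GC box on the opposite strand, at -103 to -98 and -35 to -30. A CCAAT box was present in 33.8% and a GC box in 32.7% of all 32851 RefSeq windows of this length. The TGATGNAA core was found in 1 of the 7 promoters that matched, that of Got1 at -102 to -95, and in 3.45% of all windows. No glucocorticoid receptor element was found in the 7, and 0.387% of all windows held one. These are matches of letters only, and sites outside these 250 bases were not searched.

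Glul (ENSMUSG00000026473, GRCm38 chromosome 1, 153899944 to 153909723, plus strand) encodes glutamine synthetase. Controls 1 to 4 held 159, 189, 107 and 162 CPM and knockouts 1 to 4 held 70.0, 69.9, 65.6 and 58.5. Every knockout library was below every control library, and control 3 was the lowest control. The mean fell from 154.5 ± 34.3 to 66.0 ± 5.42 CPM, or 42.7% of control. Its log2 fold change was -1.23 (SE 0.14, edgeR adjusted p = 1.7e-05). Between 274 and 934 reads per library lay behind these values. No exon of another gene covers the last exon of Glul (153907864 to 153909723), where 3′ reads are expected. Upstream, 116 exonic bases are shared with Teddm2, a gene on the opposite strand, which also fell (log2 fold change -1.25, SE 0.19, edgeR adjusted p = 4.9e-05). The strand setting of the counting is not given in the sources used here, so reads over those shared bases cannot be assigned to a gene.

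Slc1a1 (ENSMUSG00000024935, GRCm38 chromosome 19, 28835049 to 28913960, plus strand) encodes the high-affinity glutamate and aspartate transporter EAAC1, best known from neurons and kidney. Controls 1 to 4 held 9, 9, 5 and 8 reads and knockouts 1 to 4 held 63, 88, 58 and 40. On the CPM scale these were 1.94, 1.82, 0.979 and 1.68 in controls against 13.2, 16.8, 10.8 and 8.53 in knockouts. The highest control lay well below the lowest knockout, and the gene passed the filter on low counts only through the knockout libraries. The mean rose from 1.61 ± 0.431 to 12.3 ± 3.54 CPM, which is 768% of control. Its log2 fold change was 2.93 (SE 0.27, edgeR adjusted p = 3.9e-08). The gene shares 2631 exonic bases with 4430402I18Rik on the opposite strand, 226 of them in its last exon. That neighbour had 8 to 15 reads in controls and 6 to 12 in knockouts, which overlap.

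Nerve and Schwann cell markers were measured beside Slc1a1 because neurons are a known site of its expression. Of 6 listed, 4 were tested and 0 were called. All 4 had a log2 fold change above 0, against 5446 of all 10691 tested genes, and their median was 0.15. The summed level of the 6 was 47.1 to 67.1 CPM in controls and 54.8 to 57.9 in knockouts. The neurofilament gene Nefl had 0 reads in all 8 libraries. A part of nerve tissue in the rise of Slc1a1 was not tested.

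Slc38a2 (ENSMUSG00000022462, GRCm38 chromosome 15, 96687392 to 96699730, minus strand) encodes SNAT2, a sodium-coupled carrier of glutamine and other small neutral amino acids. Its level in controls 1 to 4 was 76.2, 82.7, 79.9 and 100.04 CPM, and in knockouts 1 to 4 it was 53.2, 67.0, 45.9 and 43.5. Knockout 2 was nearest to the controls, and the groups did not overlap. The mean fell from 84.7 ± 10.6 to 52.4 ± 10.6 CPM, or 61.9% of control. Its log2 fold change was -0.69 (SE 0.12, edgeR adjusted p = 0.00038).

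**Figure D1:**
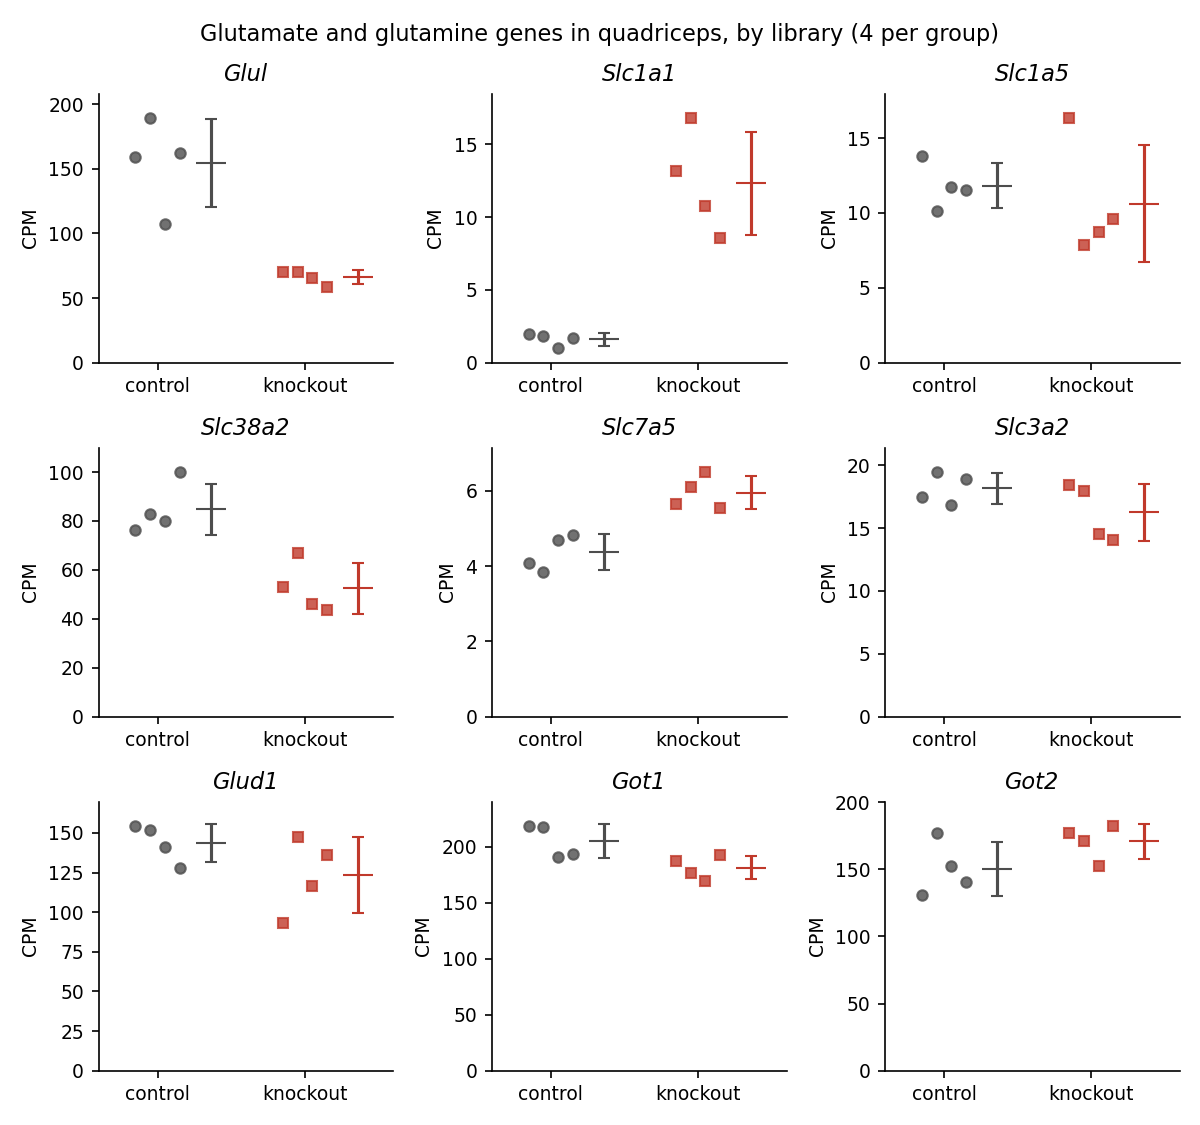
CPM of each of the 9 genes in the 4 control (circles) and 4 knockout (squares) libraries, with the mean and SD beside them and every axis starting at 0. Glul and Slc38a2 are lower in all knockout libraries, Slc1a1 is higher in all of them, and Slc7a5 is also separate although it did not pass the threshold.

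The other carriers gave smaller differences, none past the threshold. Slc7a5 (ENSMUSG00000040010), the transport subunit LAT1, measured 4.09, 3.85, 4.70 and 4.83 CPM in controls 1 to 4 and 5.66, 6.11, 6.50 and 5.55 in knockouts 1 to 4. The groups did not overlap, but with 19 to 35 reads per library the log2 fold change was 0.45 (SE 0.21, edgeR unadjusted p = 0.047, adjusted p = 0.171). The 95% interval of -0.07 to 0.97, on 6 residual degrees of freedom, includes 0 and is wider than the unadjusted test implies. Slc3a2 (ENSMUSG00000010095), the heavy chain 4F2hc that brings LAT1 to the membrane, ranged from 16.8 to 19.5 CPM in controls and from 14.1 to 18.4 in knockouts (log2 fold change -0.16, SE 0.14). For Slc1a5 (ENSMUSG00000001918), the glutamine exchanger ASCT2, the control range was 10.1 to 13.8 CPM and knockout 1 stood at 16.3 against 7.83 to 9.60 in the other knockouts. Its log2 fold change was -0.16 (SE 0.20) with an interval of -0.65 to 0.33, so a difference of moderate size in either direction is not excluded.

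The enzymes of glutamate also stayed short of the threshold. Got1 (ENSMUSG00000025190), the cytosolic aspartate aminotransferase, was the most abundant of the 9 genes in both groups, at 205 ± 15.1 CPM in controls and 181 ± 10.3 in knockouts. Its log2 fold change was -0.18 (SE 0.08, edgeR adjusted p = 0.166). Got2 (ENSMUSG00000031672), the mitochondrial form, measured 150.3 ± 20.1 and 171 ± 13.1 CPM (log2 fold change 0.18, SE 0.09, edgeR adjusted p = 0.211). Glud1 (ENSMUSG00000021794), mitochondrial glutamate dehydrogenase, ranged from 128 to 154 CPM in controls and from 93.4 to 148 in knockouts, where knockout 1 was the lowest (log2 fold change -0.22, SE 0.11). The pseudogene rows Got2-ps1 and Glud-ps held 0 reads in the 8 libraries together.

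The order of levels shifted between genotypes. In controls Got1 came first, followed by Glul, Got2 and Glud1, whose library ranges overlapped one another, then Slc38a2, Slc3a2, Slc1a5, Slc7a5 and Slc1a1. In knockouts Glul ranked 4, below Got2 and Glud1 in every library, and its range no longer met theirs. Slc1a1 moved from the ninth to the seventh place, where its range of 8.53 to 16.8 CPM overlapped that of Slc1a5. These are levels of 3′ reads, and capture can differ between genes.

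A wider list of 28 enzymes that make or use glutamate and glutamine had 22 tested members, of which 1 rose and 1 fell. That was 9.09% of those tested, against 15.7% of all tested genes, and the median log2 fold change of the list was -0.01. Gpt, the cytosolic alanine aminotransferase, rose from 14.6 ± 3.28 to 23.1 ± 1.07 CPM. This was a log2 fold change of 0.65 (SE 0.15, edgeR adjusted p = 0.0028). Its mitochondrial counterpart Gpt2 had a log2 fold change of -0.24 (SE 0.11, edgeR adjusted p = 0.178). Without knockout 1, 2 of the listed enzymes were called lower. The asparagine synthetase gene Asns had between 0 and 3 reads in each library and was not tested.

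Among 25 other carriers of glutamate, glutamine and related amino acids, 13 were tested, 2 rose and 1 fell, with a median of 0.10. Calls made up 23.1% of the tested carriers, against 15.7% of all tested genes. Slc38a4 (SNAT4), a system A carrier like Slc38a2, held 108, 128, 126 and 105 CPM in controls 1 to 4 and 54.0, 60.5, 71.7 and 69.8 in knockouts 1 to 4. It fell with a log2 fold change of -0.87 (SE 0.10, edgeR adjusted p = 1.4e-06), and the groups did not overlap. Slc38a2 and Slc38a4 lie on the same strand of chromosome 15 with 295089 bases between them, and the third member of this cluster, Slc38a1, had 0 to 6 reads per library. Slc38a3 (SNAT3), a system N carrier of glutamine, had a log2 fold change of 0.32 (SE 0.11, edgeR adjusted p = 0.0509). Slc43a2 (LAT4), a carrier of large neutral amino acids, rose from 19.6 ± 2.80 to 30.2 ± 2.13 CPM. The fitted difference was 0.62 on the log2 scale (SE 0.12, edgeR adjusted p = 0.00094).

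Slc7a6 (y+LAT2), which exchanges glutamine for basic amino acids together with Slc3a2, rose from 4.06 ± 0.540 to 6.55 ± 1.77 CPM. The fitted difference was 0.69 on the log2 scale (SE 0.24, edgeR adjusted p = 0.0491). Its call was lost in 13 of 17 alternatives. Among them were leaving out control 1 (adjusted p = 0.0946), control 3 (0.125), control 4 (0.0983), knockout 1 (0.0947) or knockout 2 (0.208). The other plasma membrane glutamate transporters of the Slc1 family (Slc1a2, Slc1a3, Slc1a6 and Slc1a7) held between 0 and 6 reads per library and were not tested. Without control 2, 4 of the listed carriers were called higher.

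**Figure D2:**
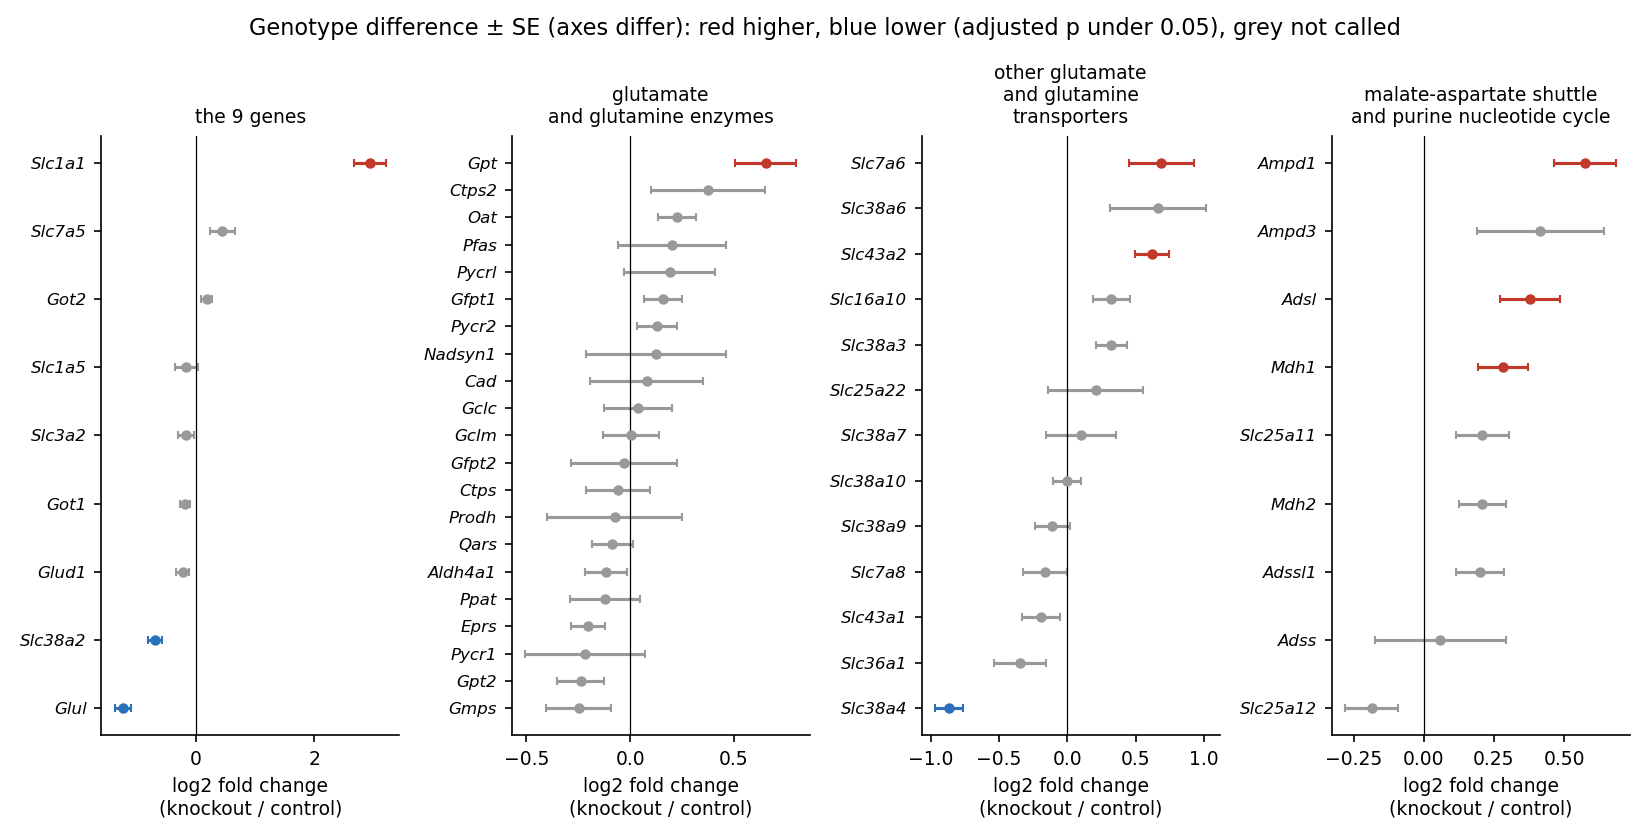
Log2 fold change (knockout over control) with its SE for the tested genes of the 9 and of 3 related lists (1 enzyme is not shown), on axes that differ between panels. Red genes are higher and blue genes lower at an adjusted p under 0.05, and Slc1a1 at 2.93 and Glul at -1.23 are the extremes over the 4 panels.

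Got1 and Got2 are both part of the malate-aspartate shuttle, which carries reducing equivalents into mitochondria. Aspartate also enters the purine nucleotide cycle, which releases ammonia in working muscle. Of 11 listed genes of these routes 9 were tested, 3 rose and 0 fell, against 8.87% higher and 6.8% lower among all tested genes. The median log2 fold change of the 9 was 0.21, against 0.01 over all tested genes. Ampd1, the muscle AMP deaminase, rose from 848 ± 114 to 1264 ± 191 CPM. The fitted difference was 0.58 on the log2 scale (SE 0.11, edgeR adjusted p = 0.00093). Its libraries ran from 700 to 957 CPM in controls and from 994 to 1431 in knockouts. Adsl, which makes AMP from adenylosuccinate, had a log2 fold change of 0.38 (SE 0.11, edgeR adjusted p = 0.0156). Mdh1, the cytosolic malate dehydrogenase, had one of 0.28 (SE 0.09, edgeR adjusted p = 0.0322). The call of Adsl ended without control 3 (adjusted p = 0.0608), control 4 (0.0623), knockout 2 (0.0617) or knockout 4 (0.0835), and the count of higher genes was then 1. That of Mdh1 ended without control 1 (0.0852), control 3 (0.0848), control 4 (0.100), knockout 1 (0.0651), knockout 2 (0.0580) or knockout 4 (0.138), and with reads thinned to the smallest library (0.0506).

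Partner transcripts were compared within each library for 5 pairs chosen after their values were seen, with p-values adjusted over the 5, of which 4 are given here. The scaling between libraries cancels in such ratios, and a ratio shows unequal change only. Got1 stood above Got2 by 0.74, 0.29, 0.32 and 0.46 on the log2 scale in controls 1 to 4 and by 0.08, 0.04, 0.16 and 0.08 in knockouts 1 to 4. The reads of these genes were thus nearly level in knockouts, although capture can differ between genes and neither gene passed the threshold by itself. The difference between genotypes in the log2 ratio was -0.37 (exact two-sided permutation p = 0.0286, the smallest possible, adjusted p = 0.0476). Groups that are separate always give this smallest p. For pairs chosen after their values were seen, the p and adjusted p therefore restate the separation and do not test it. The ratio of Gpt to Gpt2 moved the other way, from -4.01 ± 0.23 to -3.08 ± 0.25 on the log2 scale, with the same exact permutation p and adjusted p. For Slc7a5 to Slc3a2, whose products form 1 transporter, the log2 ratio was -2.06 ± 0.21 in controls and -1.44 ± 0.24 in knockouts, also without overlap and with the same exact permutation p and adjusted p. Mdh1 to Mdh2 differed by 0.08 (exact permutation adjusted p = 0.514), and the groups overlapped. The calls of Got1 to Got2, Gpt to Gpt2 and Slc7a5 to Slc3a2 ended without control 1, control 2, knockout 1, knockout 2 or knockout 4, with exact permutation adjusted p from 0.0714 to 0.0952. With 7 libraries the smallest p possible before adjustment is again 0.0286, so the calls could still have passed. The pairs are adjusted together, so 1 pair above that smallest p can end the calls of all 3. Groups that are separate with all 8 libraries must stay separate when 1 is left out, so their separation is no further check. With a library left out, the differences of these 3 pairs were -0.42 to -0.27, 0.82 to 1.01 and 0.53 to 0.71.

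**Figure D3:**
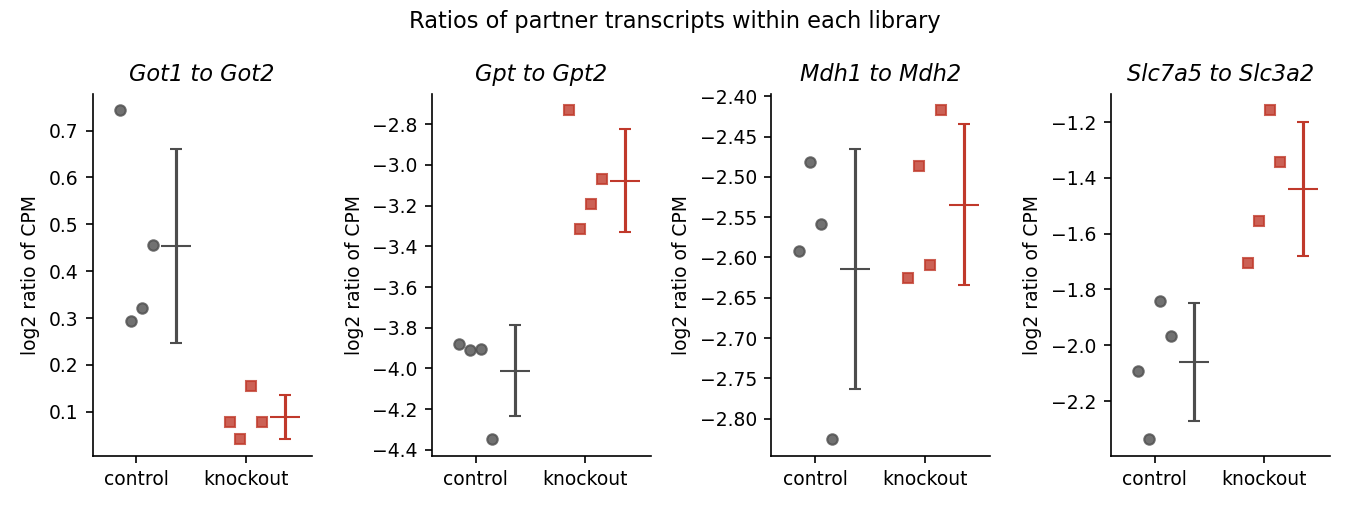
Log2 ratio of CPM of 4 pairs of partner genes in each control (circles) and knockout (squares) library, with mean and SD, on axes that differ between panels and do not start at 0. The groups are separate for Got1 to Got2, Gpt to Gpt2 and Slc7a5 to Slc3a2 and overlap for Mdh1 to Mdh2.

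Slc7a5, Slc3a2, Slc1a5 and Slc38a2 are known targets of ATF4, the transcription factor of the amino acid response. In a list of 13 tested genes of that response 2 rose and 2 fell, with a median of 0.01. Called genes were 30.8% of that list, against 15.7% of all tested genes. Atf5 rose from 126 ± 11.1 to 184 ± 14.3 CPM. The fitted difference was 0.54 on the log2 scale (SE 0.09, edgeR adjusted p = 0.00011). Eif4ebp1, an inhibitor of cap-dependent translation, fell (log2 fold change -0.46, SE 0.12, edgeR adjusted p = 0.0098). Atf4 itself had a log2 fold change of 0.19 (SE 0.09, edgeR adjusted p = 0.166). Mthfd2, a mitochondrial folate enzyme, rose by 0.71 on the log2 scale (SE 0.23, edgeR adjusted p = 0.0381). That call ended without control 1 (0.110), control 3 (0.150), knockout 2 (0.131) or knockout 3 (0.0769). Vldlr, a lipoprotein receptor, fell (-0.34, SE 0.09, edgeR adjusted p = 0.0117), and its call ended without knockout 4 (0.0530).

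Glul is also a classical glucocorticoid target, and 15 other genes of that response were measured with it. None passed edgeR's threshold, against 15.7% of all tested genes, and DESeq2 called 2 as lower. An unadjusted edgeR p under 0.05 was found for 6 of the 15, against 3009 of all 10691 tested genes. Sgk1, 1 of these 6, was above 0 (log2 fold change 0.45, SE 0.17, edgeR adjusted p = 0.0987). The median log2 fold change of the 15 was -0.20, with 13 of 15 below 0, against 5245 of all tested genes. The libraries of the groups overlapped for each of the 15, whereas 19.2% of all tested genes had no overlap. Zbtb16 and Tsc22d3 had the lowest p (log2 fold changes -0.31 and -0.31, SE 0.11 each, edgeR adjusted p = 0.0636 and 0.0687). Control 3, the lowest control for Glul, was the lowest control for 8 of the 15, against 4 for control 1, 1 for control 2 and 2 for control 4, a tally made after the values were seen. The same tally was not made over all tested genes, and a part of glucocorticoids in the fall of Glul was not tested. Without control 3, 5 of the 15 were called lower, and without knockout 2, 4 were. Without control 1 it was 1, and without control 4, 1 was called higher. Over all tested genes, 599 of 10794 were called lower without control 3 and 578 of 10811 without knockout 2. Glul was called in every alternative, at -1.38 to -1.12.

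Glul is expressed by macrophages and other non-muscle cells as well as by fibres, and in bulk tissue fewer cells of a type and less RNA per cell cannot be told apart. Of 8 macrophage markers 7 were tested and 3 fell (Cd163, C1qb and Csf1r), against 6.8% called lower among all tested genes. All 7 had a log2 fold change below 0, and none of the 8 markers was at 0 reads in all libraries. Their summed level was 71.1 to 118 CPM in controls and 52.7 to 82.5 in knockouts. Their part in the fall of Glul was not tested. The call of Csf1r ended without control 2, control 3, control 4, knockout 1, knockout 2 or knockout 4. None of 8 endothelial and mural markers passed the threshold, and their summed level was 587 to 627 CPM in controls and 562 to 656 in knockouts. Of 10 myofibre markers 8 were tested, 7 of them with a log2 fold change above 0. Acta1, skeletal actin, rose (0.26, edgeR adjusted p = 0.0495) and Myh4, the myosin of the fastest fibres, fell (-0.31, edgeR adjusted p = 0.0128). The other fast myosin genes had positive values short of the threshold, 1.46 for Myh2 (SE 0.41, edgeR adjusted p = 0.0644, groups not overlapping) and 0.67 for Myh1 (SE 0.24, edgeR adjusted p = 0.112). Of 7 fibroblast and tendon markers, all tested, 5 were below 0 and 2 above, and 1 fell, the matrix gene Dcn (-0.27, edgeR adjusted p = 0.0387). Their part in the results on the 9 genes was not tested. The call of Dcn ended without control 3, control 4, knockout 3 or knockout 4, and that of Acta1 when any library other than control 2 was left out. None of the 5 adipocyte and 5 erythroid markers passed the threshold, nor did Pax7, the 1 of 4 satellite cell markers that was tested.

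Over the 8 libraries, the genes nearest in pattern were found by the root mean square difference of log2 level relative to the control mean. Because this distance covers both genotypes, a direction shared with the member follows from the choice and is no separate result. For Glul they were Npc1, the lysosomal cholesterol transporter (0.16), Tmem37 (0.175) and Hist2h3c2 (0.20), a histone gene with near-identical copies and thus an uncertain count. For Slc1a1 they were Cux2 (0.39), Irf5 (0.42) and Prkcz (0.43), transcription factor and kinase genes that were low in control muscle. Cux2 (1.34 CPM in controls, 9.04 in knockouts) and Prkcz (0.773 and 9.40) met the minimum mean of 5 CPM only through the knockouts. For Slc38a2 they were Ogfrl1 (0.15), the kinase gene Pim3 (0.16) and Borcs6 (0.17). Npc1 fell from 169 ± 24.2 to 76.7 ± 4.86 CPM, and Irf5 rose from 3.09 ± 0.908 to 20.5 ± 4.18 CPM.

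**Figure D4:**
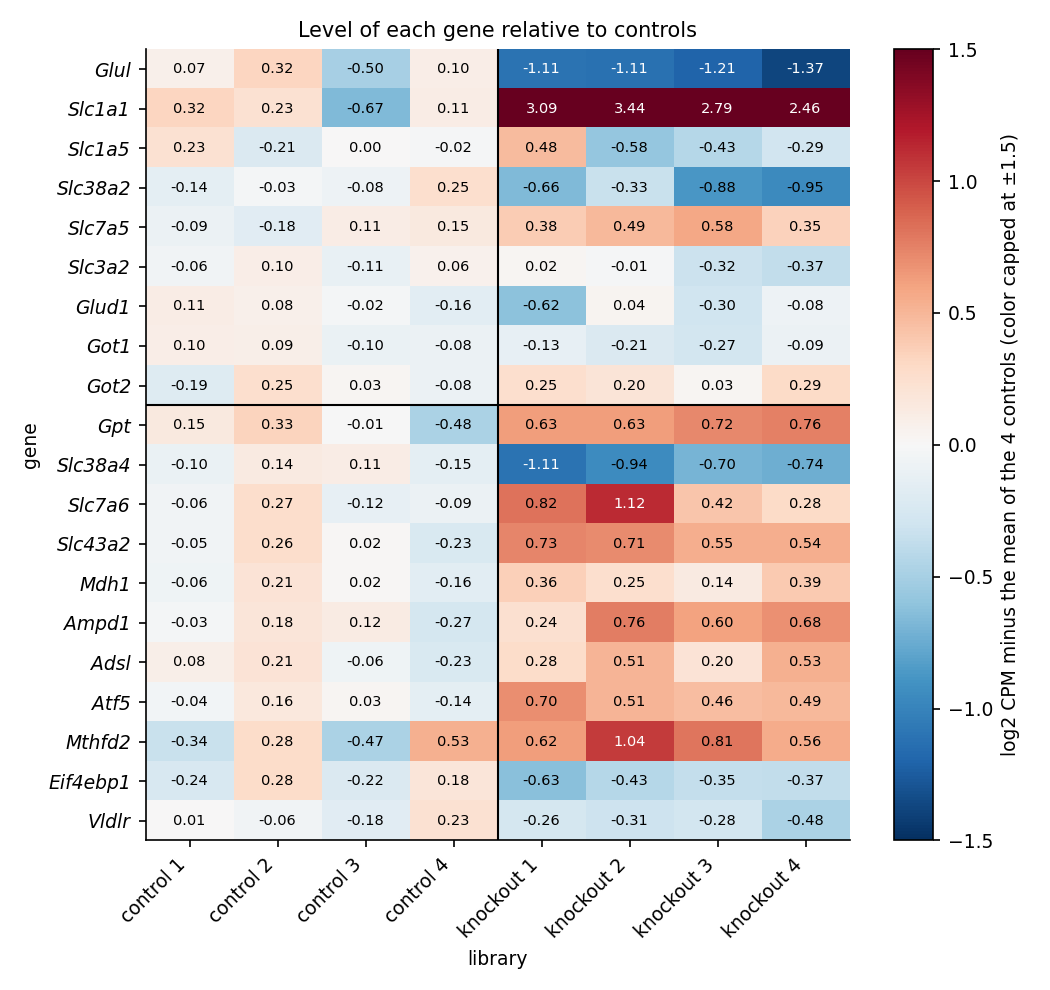
Log2 CPM of the 9 genes (above the line) and of called genes of the related lists (below it) in each library, minus the mean of the 4 controls, with color capped at ±1.5. Glul, Slc38a2 and Slc38a4 are below 0 in all 4 knockouts, and Slc1a1, Gpt, Slc43a2 and Ampd1 are above 0 in all 4.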

How the data were processed

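Quadriceps RNA was measured by QuantSeq 3′ mRNA sequencing in 4 control and 4 knockout libraries, grouped by the genotype label. The replicate numbers 1 to 4 printed here follow the accessions and are names only. Values were deposited as raw counts of reads for each Ensembl gene, per the file headers. Bowtie2 2.3.4.1, Subread 1.6.2 with featureCounts, and the builds GRCm38 and mm10 are listed in the submitters' processing notes. For the annotation, the strand setting and multi-mapping reads, the procedure is not given in the sources used here. Names and coordinates came from GENCODE M21 (GRCm38), which matched 54495 of 54532 genes, and promoters from RefSeq (7 of the 9 genes matched).

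Counts were fitted in R 4.3.3 with edgeR 4.0.16 (filterByExpr with a minimum count of 10 and total of 15, TMM, robust quasi-likelihood F test, Benjamini-Hochberg over 10691 genes). The tested genes held 99.5% to 99.6% of each library's reads. Each SE was obtained as log2 fold change over √F, and 95% intervals use 6 residual degrees of freedom. Values of n = 4 carry the SD. A floor of 3 reads is 0.555 to 0.681 CPM, for counting error only. The procedure was tested on simulated data. No library pair agreed within sampling noise (chi-square per degree of freedom at least 2.33). Alternatives were DESeq2 1.42.0, limma voom 3.58.1, other scalings and filters, thinning, the number that ends each sample title as a numeric covariate and leaving out each library.

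The 9 genes and the lists were chosen with earlier results of these data known. Named genes were the 9, Gpcpd1, up to 4 called genes of lowest p per list (2 of lowest p as values where fewer than 2 were called), and for each changed member the 3 nearest patterns among genes of at least 5 CPM that are not predicted, pseudogenes or on chromosomes X and Y. Other genes given with values (Gpt2, Asns, Slc38a3, Atf4, Sgk1, Teddm2, 4430402I18Rik and the markers) were chosen after their values were seen. For 1 gene of the enzyme list, individual values and its pair are not reported here, and it is included in the counts and median of the list.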

Additional observations from a re-analysis of the deposited data

Results flagged for a closer look

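Of 58 sets of 4 values examined, 2 had a library far from its group, and chance gives about 1 in 20. Control 2 stood apart for Slc7a6, at 4.86 CPM against 3.72 to 3.88 in the other controls. Control 4 stood apart for the log2 ratio of Gpt to Gpt2, at -4.35 against -3.91 to -3.88 in the other controls, and without it the difference between genotypes was 0.82.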

How the results depend on the processing

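The calls of Slc1a1, Glul and Slc38a2 held in all 18 alternatives, with log2 fold changes of 2.74 to 3.06, -1.38 to -1.12 and -0.83 to -0.61, and the other 6 of the 9 genes were called in none. By title number the knockouts form an unbroken run between controls, so this covariate could hardly change the genotype difference. An effect of that run cannot be told apart from genotype. Gpt, Slc38a4, Slc43a2, Ampd1, Atf5 and Eif4ebp1 were called in all 18. Library totals alone gave 2 lower genes among the enzymes, and leaving out a library gave 1 to 2. For the other carriers the number of higher genes was 1 with DESeq2, limma voom, no robust estimation, RLE scaling, upper quartile scaling, library totals alone or no filter, and 1 to 4 with a library left out. The shuttle and purine cycle genes had 2 higher with thinning and 1 to 3 with a library left out. The amino acid response genes had 1 higher with DESeq2, library totals alone or thinning, and with a library left out 1 to 3 higher and 1 to 2 lower. Of the glucocorticoid genes 1 was higher with limma voom, no filter or the title number as covariate, and 2 were lower with DESeq2, 1 with limma voom, 2 without robust estimation, 1 with upper quartile scaling and 4 with no filter. With a library left out 0 to 1 were higher and 0 to 5 lower. The cause of these moves was not tested. No paired analysis was possible because the labels give no replicate numbers. Below about 10 reads per library, as for Slc1a1 in controls, depth limits the size of a fold.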
